A study of Mus musculus with 12 samples.

Results

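The TCF/LEF transcription factors and the cofactors that work with them and beta-catenin were followed in Lgr5-GFP+ intestinal stem cells of mice with 2, 1 or 0 floxed copies of Apc. The group held 9 genes chosen by symbol: the factors Tcf7, Lef1, Tcf7l1 and Tcf7l2, the co-activators Bcl9, Bcl9l and Pygo2, and the co-repressors Tle1 and Tle3. Of these, 7 had rows under their own name among the 14082 gene symbols used. Bcl9 and Pygo2 appeared only under joined names, Bcl9,Gm17608 and Pygo2,Shc1, and are given apart. The Pygo2,Shc1 locus wholly contains the neighbouring protein-coding gene Shc1, so its level cannot be assigned to Pygo2.

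The mice were C57BL/6, and all of them, controls included, carried Lgr5-CreERT2-ires-eGFP, which places a tamoxifen-inducible Cre and green fluorescent protein in Lgr5-expressing cells. The Apc_KO group was ApcFlox/Flox, the Apc_HET group ApcFlox/+ and the Apc_WT group Apc+/+, with 4 libraries each. Every group received tamoxifen, as 1 injection and then 5 days in the diet, and Lgr5-GFP+ cells of the intestinal epithelium were sorted by FACS on day 15 for RNA sequencing from random-primed cDNA. Since the sort takes cells by the reporter, cells that no longer carried it were not sampled. Markers of differentiated cells were still read in the sorted cells, such as Fabp1 at 625 ± 396 and Muc2 at 192 ± 60.2 FPKM in Apc_WT. The labels give neither age, sex nor batch, and do not say that each library came from its own mouse, so p-values measure the spread between these libraries.

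Without a Wnt signal, TCF/LEF factors sit on target genes together with TLE proteins, which repress transcription. When APC is lost, the complex that destroys beta-catenin fails, beta-catenin enters the nucleus, displaces TLE and recruits BCL9 or BCL9L with Pygopus to the same factors. In the intestinal epithelium Tcf7l2 is the factor best known for sustaining crypt stem cells, while Lef1 and Tcf7 are also known as Wnt targets and as T-cell factors.

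The stretches of genome in front of annotated starts are shown for the member with the largest change, Lef1, and for the factor with the flattest level, Tcf7l2. They are also shown for Tle1, on average the most abundant of the 7 members with their own rows. Each line holds the 250 bases before a start and the first transcribed base, 5′ to 3′ on the gene's strand, from RefSeq on GRCm38.p6. The last base is in capitals, and so is any match to a TCF/LEF motif, searched on both strands. The motif was spelled CTTTGAA, its variant with another last letter CTTTGAT, and the variants with T in the place before the last were spelled CTTTGTA when they ended in A and otherwise CTTTGTT. Lef1 is on the plus strand of chromosome 3, with its first start in chr3:131110047-131110297 and an internal one, 45997 bases further on, in chr3:131156044-131156294. Tle1 is on the minus strand, in chr4:72200893-72201143, where 26 of the bases before the start fall in an exon of the GENCODE annotation. Tcf7l2 is on the plus strand, with its first start in chr19:55741560-55741810 and an internal one, 153511 bases further on, in chr19:55895071-55895321. None of the windows other than that of Tle1 overlaps a GENCODE exon of its gene before the start.
Lef1, first start: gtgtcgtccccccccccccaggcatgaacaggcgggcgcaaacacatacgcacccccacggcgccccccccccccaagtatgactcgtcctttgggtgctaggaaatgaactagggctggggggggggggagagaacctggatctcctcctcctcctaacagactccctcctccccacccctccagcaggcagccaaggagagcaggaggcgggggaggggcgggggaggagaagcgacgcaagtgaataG
Lef1, internal start: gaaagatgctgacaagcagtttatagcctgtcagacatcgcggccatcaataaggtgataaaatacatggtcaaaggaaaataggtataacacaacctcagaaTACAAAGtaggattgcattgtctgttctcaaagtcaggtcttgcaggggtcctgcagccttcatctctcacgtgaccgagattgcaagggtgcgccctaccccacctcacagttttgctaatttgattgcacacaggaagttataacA
Tle1, first start: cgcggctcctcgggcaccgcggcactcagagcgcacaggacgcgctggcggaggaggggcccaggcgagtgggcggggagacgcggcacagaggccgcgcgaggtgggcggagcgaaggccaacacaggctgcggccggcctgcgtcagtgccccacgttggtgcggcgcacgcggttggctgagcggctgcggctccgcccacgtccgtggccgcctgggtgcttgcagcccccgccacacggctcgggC
Tcf7l2, first start: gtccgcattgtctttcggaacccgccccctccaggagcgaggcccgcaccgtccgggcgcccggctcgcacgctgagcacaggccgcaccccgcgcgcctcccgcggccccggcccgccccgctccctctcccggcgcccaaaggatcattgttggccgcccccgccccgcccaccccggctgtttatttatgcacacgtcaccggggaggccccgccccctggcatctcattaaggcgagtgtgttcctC
Tcf7l2, internal start: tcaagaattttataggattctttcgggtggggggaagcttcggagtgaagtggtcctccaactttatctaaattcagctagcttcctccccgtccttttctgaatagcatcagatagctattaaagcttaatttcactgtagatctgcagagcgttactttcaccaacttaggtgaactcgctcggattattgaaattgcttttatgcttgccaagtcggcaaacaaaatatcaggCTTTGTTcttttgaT
Windows were found for 8 of the 9 members, all but Bcl9l, and a match stood at 2 of these 15 windows (13.3%), against 4874 of 32851 windows of all genes (14.8%). The 2 were both at internal starts, TACAAAG beginning 147 bases before that of Lef1 and CTTTGTT beginning 14 bases before that of Tcf7l2. The members' share is close to that of all genes, and the levels compared here, summed per gene symbol, do not separate transcripts by start.

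Levels are FPKM, sequenced fragments scaled by transcript length and by library size, so members can be compared with each other. Fold changes were taken after adding 1 FPKM and passing to log2, which understates the ratio of genes near 0 FPKM. A gene was called where limma's Benjamini-Hochberg adjusted p, over the 12962 genes with at least 1 FPKM in at least 4 libraries, was under 0.05. All 7 members with their own rows, and both joined rows, passed that filter on low values.

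Read depth is unknown, but the steps between low values put the libraries between 0.371 and 1 times the depth of the deepest, Apc_WT replicate 1, and within a genotype libraries correlated at 0.913 to 0.981 across genes. Apc itself averaged 13.8 ± 3.18 FPKM in Apc_KO, 11.01 ± 1.11 in Apc_HET and 8.89 ± 1.64 in Apc_WT (SD, n = 4 each), and its Apc_KO level was called higher than the Apc_WT level (log2 fold change 0.58, SE 0.17, adjusted p = 0.014). A level over the whole gene does not show whether floxed exons were removed, so it is no check of the genotype labels. Of 8 epithelial markers 7 were tested for Apc_KO against Apc_WT. Epcam, at 791 ± 215, 767 ± 12.5 and 791 ± 63.2 FPKM in Apc_KO, Apc_HET and Apc_WT, and Krt8 were not called, Krt18 was called higher (log2 fold change 1.30), and Cdh1 (-0.46), Vil1 (-1.29), Cdx1 (-1.25) and Cdx2 (-1.11) were called lower. Across all genes the median log2 fold change was 0.12 for Apc_KO against Apc_WT, 0.04 for Apc_KO against Apc_HET and 0.07 for Apc_HET against Apc_WT.

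**Figure D1:**
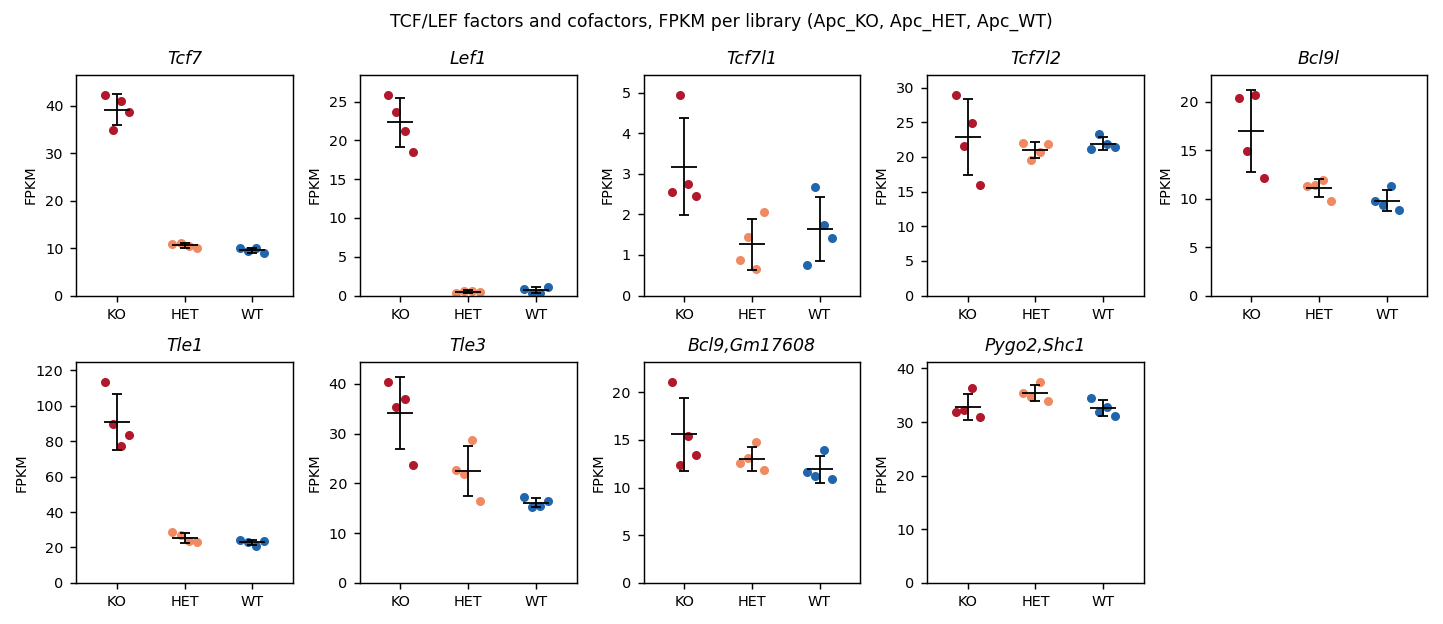
FPKM of the 7 members with their own rows and of the joined Bcl9,Gm17608 and Pygo2,Shc1 rows; each point is a library (replicates 1 to 4 from left to right), horizontal bars are means and error bars SD (n = 4), and vertical axes start at 0 with a scale of their own. Tcf7, Lef1 and Tle1 in the 4 Apc_KO libraries lie above every Apc_HET and Apc_WT library, while Tcf7l2 overlaps across all genotypes.

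Loss of both Apc copies went with higher RNA of Lef1, Tcf7, Tle1, Tle3 and Bcl9l, and with little difference in Tcf7l2. In Apc_KO against Apc_WT, 5 of the 7 members were called higher and 0 lower, where 45.5% of all genes tested were called, 27.9% higher and 17.7% lower. After scaling the libraries by size factors the calls over all genes divided into 2864 higher and 2829 lower, beside 3613 and 2291 as deposited, and the same 5 members were called higher. The members' median log2 fold change was 1.02. For the same 5 members the Apc_KO and Apc_WT libraries did not overlap in FPKM as deposited, as was so for 40.4% of all genes.

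Lef1, the factor known from lymphocytes and embryonic tissues, showed the widest gap. Its 6 rows, which share a locus and were summed, came to 25.9, 23.7, 21.2 and 18.5 FPKM in Apc_KO replicates 1 to 4, to 0.291, 0.622, 0.621 and 0.505 in Apc_HET, and to 0.892, 0.325, 0.338 and 1.12 in Apc_WT. Every Apc_KO library was thus far above every other library, and the Apc_HET and Apc_WT ranges overlapped. Lef1 averaged 22.3 ± 3.19 FPKM in Apc_KO and 0.668 ± 0.400 in Apc_WT (SD, n = 4 each), a ratio of 33.4 (log2 fold change 3.83, SE 0.18, adjusted p = 1.79e-08). By fold change it ranked 79 of 12962 genes from the highest. Against the 0.510 ± 0.156 FPKM of Apc_HET the Apc_KO level differed by 3.95 on the log2 scale (SE 0.18, adjusted p = 1.60e-08).

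Tcf7, which encodes TCF1, was already present in stem cells with intact Apc and stood well above that level in each Apc_KO library. It measured 42.3, 34.8, 40.9 and 38.7 FPKM in Apc_KO replicates 1 to 4, 10.9, 11.1, 10.4 and 10.1 in Apc_HET, and 10.01, 9.29, 9.95 and 8.90 in Apc_WT. The Apc_KO libraries kept clear of the rest. As deposited, the lowest Apc_HET value lay just above the highest Apc_WT value, an order lost after division by the size factors. The means were 39.2 ± 3.26 FPKM in Apc_KO and 9.54 ± 0.537 in Apc_WT, a ratio of 4.11 (log2 fold change 1.93, SE 0.09, adjusted p = 1.75e-08). Against Apc_HET, at 10.6 ± 0.479 FPKM, the log2 fold change was 1.79 (SE 0.09, adjusted p = 2.85e-08).

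Tcf7l2, which encodes TCF4, was at 29.0, 21.6, 24.9 and 16.01 FPKM in Apc_KO replicates 1 to 4, 21.96, 19.6, 20.7 and 21.9 in Apc_HET, and 21.1, 23.3, 21.9 and 21.4 in Apc_WT. The Apc_KO libraries spread widest and included both the highest and the lowest value of all 12. Tcf7l2 was not called in either comparison of Apc_KO, being at 0.03 on the log2 scale against Apc_WT (SE 0.14, adjusted p = 0.888) and 0.09 against Apc_HET (SE 0.14, adjusted p = 0.671). With 4 libraries a difference of that size cannot be told from 0, and its sign turned under other scalings (-0.09 against Apc_WT with size factors).

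Tcf7l1, which encodes TCF3, a factor known in mouse embryonic stem cells mainly as a repressor, was the lowest of the 4 factors in Apc_KO. Summed over its 3 rows it was at 2.56, 4.95, 2.75 and 2.46 FPKM in Apc_KO replicates 1 to 4, 0.873, 1.44, 0.652 and 2.07 in Apc_HET, and 0.741, 2.66, 1.74 and 1.41 in Apc_WT. Apc_KO stayed above every Apc_HET library but overlapped Apc_WT through its replicate 2. Tcf7l1 missed the threshold against Apc_WT (log2 fold change 0.68, SE 0.27, adjusted p = 0.0565) and was called higher against Apc_HET (0.89, SE 0.27, adjusted p = 0.0178). That second call was lost without Apc_KO replicate 2 (0.71, adjusted p = 0.0513), Apc_HET replicate 1 (0.82, adjusted p = 0.052) or Apc_HET replicate 3 (0.76, adjusted p = 0.0542), and with quantile normalization (0.71, adjusted p = 0.0601). The first was gained without Apc_WT replicate 2 (0.85, adjusted p = 0.0255) or Apc_HET replicate 4 (0.68, adjusted p = 0.0488).

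The rows behind the Tcf7l1 sum did not move together. Its row of highest mean alone measured 2.35, 2.13, 2.75 and 1.96 FPKM in Apc_KO, 0.184, 0.216, 0.237 and 0.202 in Apc_HET, and 0.159, 0.0253, 0.151 and 0.283 in Apc_WT. It has the highest mean only through its Apc_KO values, 2.30 ± 0.341 FPKM, and is the lowest of the 3 rows on average in Apc_HET (0.210 ± 0.0225) and Apc_WT (0.155 ± 0.105), so its gap between genotypes follows in part from the choice of row and is given as a description, with no test. The other 2 rows made up 0% to 56.9% of the sum in Apc_KO and 78.5% to 99.1% of it in Apc_WT. The rows share the same coordinates and were told apart only by their order in the tables, so which transcripts they stand for is not given in the sources used here. The Lef1 call in Apc_KO did not depend on this choice: its row of highest mean held 16.6 ± 2.25 FPKM in Apc_KO, 0.461 ± 0.141 in Apc_HET and 0.342 ± 0.0151 in Apc_WT (Apc_KO against Apc_WT, log2 fold change 3.71, SE 0.12, adjusted p = 1.16e-09).

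**Figure D2:**
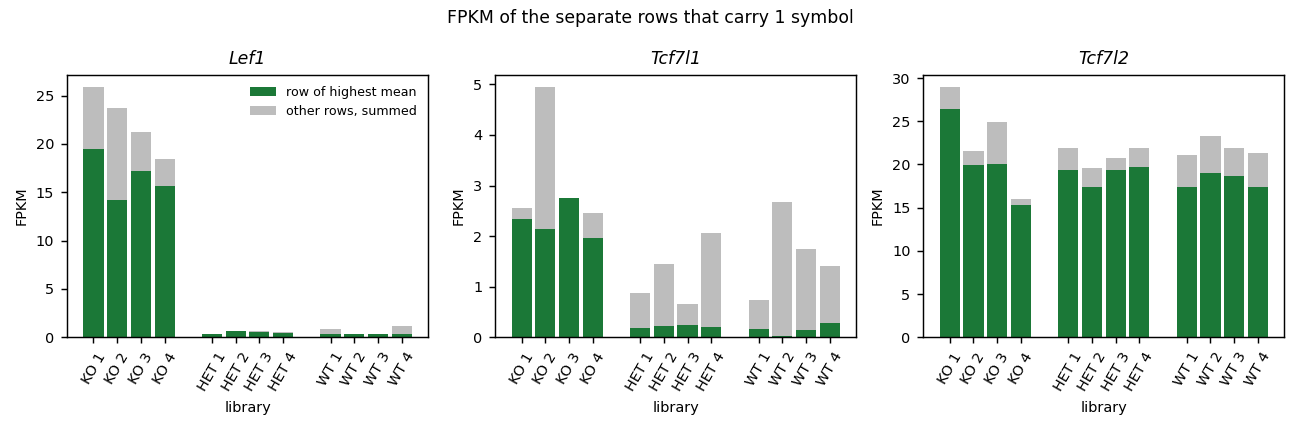
FPKM per library of Lef1, Tcf7l1 and Tcf7l2, divided into the row of highest mean (green) and the sum of the symbol's other rows (grey); libraries run from Apc_KO through Apc_HET to Apc_WT, and vertical axes start at 0 with separate scales. The green part of Tcf7l1 is 1.96 to 2.75 FPKM in Apc_KO and at most 0.283 FPKM elsewhere, where grey makes up most of the bar.

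The balance among the 4 factors therefore differed with Apc. Their summed level was 99.7, 85.04, 89.8 and 75.6 FPKM in Apc_KO replicates 1 to 4, against 32.4 to 34.6 in Apc_HET and 32.8 to 35.5 in Apc_WT. Apc_KO did not overlap the other genotypes, and the mean sum was 87.6 ± 10.03 FPKM there, 2.59 times the 33.8 ± 1.31 of Apc_WT. Tcf7l2 made up 29.1%, 25.4%, 27.7% and 21.2% of the sum in Apc_KO replicates 1 to 4, 59.8% to 64.6% in Apc_HET and 64.4% to 65.4% in Apc_WT. Tcf7 made up 41.0% to 51.1% in Apc_KO, 29.1% to 34.0% in Apc_HET and 26.2% to 30.6% in Apc_WT. For Lef1 the shares were 23.7% to 27.8% in Apc_KO, 0.854% to 1.92% in Apc_HET and 0.914% to 3.41% in Apc_WT.

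Tcf7 took the place of Tcf7l2 as the most abundant of the 4 factors in every Apc_KO library, with a Tcf7 to Tcf7l2 ratio of 1.78 ± 0.429 in Apc_KO, 0.506 ± 0.0455 in Apc_HET and 0.436 ± 0.0342 in Apc_WT. In percentage points of the sum, Apc_KO minus Apc_WT was 16.7 for Tcf7, 23.5 for Lef1 and -39.1 for Tcf7l2. Each had an exact two-sided permutation p of 0.0286, the smallest that 4 libraries against 4 can give, and 0.0571 after Benjamini-Hochberg adjustment over the 12 tests of shares. Apc_KO minus Apc_HET was 13.3 for Tcf7, 23.9 for Lef1 and -37.1 for Tcf7l2, with the same exact p and adjusted p. The Tcf7 sign against Apc_HET turned when its level was taken as a log2 ratio to the geometric mean of the other factors. The lower share of Tcf7l2 stands beside a level that was not called different in a larger sum. The share of Tcf7l1 was 3.68% ± 1.46 in Apc_KO, 3.74% ± 1.81 in Apc_HET and 4.80% ± 2.17 in Apc_WT, with Apc_KO minus Apc_WT at -1.13 points (exact permutation p = 0.4). Counted from the row of highest mean per symbol alone, that difference was 2.38 points in the other direction, but the Tcf7l1 row is chosen through its Apc_KO values and the turn supports nothing.

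**Figure D3:**
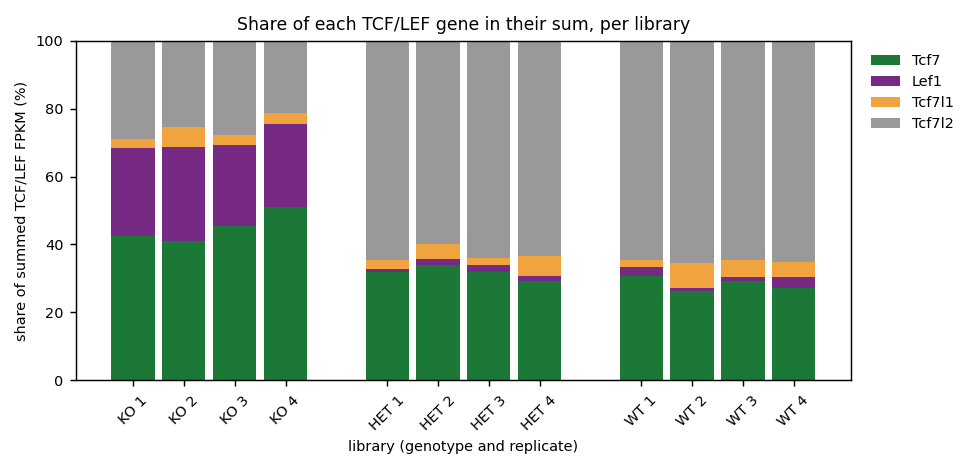
Stacked bars give the share (%) of Tcf7, Lef1, Tcf7l1 and Tcf7l2 in their summed FPKM, 1 bar per library, with Apc_KO at the left, Apc_HET in the middle and Apc_WT at the right. Tcf7l2 (grey) holds 21.2% to 29.1% in Apc_KO and at least 59.8% in each Apc_HET and Apc_WT library.

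Among the co-activators, Bcl9l, which links beta-catenin to Pygopus, was at 20.4, 14.9, 20.7 and 12.1 FPKM in Apc_KO replicates 1 to 4, 11.3, 11.4, 11.9 and 9.81 in Apc_HET, and 9.81, 9.30, 11.3 and 8.84 in Apc_WT. All Apc_KO libraries were higher than all others as deposited, though replicate 4 only just so. Divided by the size factors, 1.07 for Apc_KO replicate 4 and 0.963 for Apc_WT replicate 3, these libraries no longer kept that order. The log2 fold change was 0.71 against Apc_WT (SE 0.16, adjusted p = 0.0028) and 0.55 against Apc_HET (SE 0.16, adjusted p = 0.0147). The Bcl9,Gm17608 row, which covers its paralog Bcl9, averaged 15.6 ± 3.88 FPKM in Apc_KO, 13.04 ± 1.25 in Apc_HET and 11.9 ± 1.41 in Apc_WT and was not called (log2 fold change against Apc_WT 0.34, SE 0.15, adjusted p = 0.0863). Its value rested on single libraries: without Apc_KO replicate 1 it was 0.19 (adjusted p = 0.205), and without Apc_KO replicate 2 it passed the threshold, at 0.43 (adjusted p = 0.0394). The Pygo2,Shc1 row, which holds the Pygopus gene of the group, stood at 32.8 ± 2.44, 35.4 ± 1.52 and 32.6 ± 1.46 FPKM in Apc_KO, Apc_HET and Apc_WT (log2 fold change of Apc_KO against Apc_WT 0.01, SE 0.08, adjusted p = 0.940).

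Tle1, a Groucho-type co-repressor of TCF/LEF factors, had the highest mean of the 7 members with their own rows in every genotype. In Apc_HET and Apc_WT its libraries overlapped those of the next member. It measured 113, 89.7, 77.1 and 83.6 FPKM in Apc_KO replicates 1 to 4, 28.5, 26.8, 23.6 and 22.8 in Apc_HET, and 24.1, 22.8, 20.8 and 23.5 in Apc_WT. The lowest Apc_KO library was well above the highest of the others. The ratio of means, 91.0 ± 15.9 over 22.8 ± 1.46 FPKM in Apc_WT, was 3.99, close to that of Tcf7, and the log2 fold change 1.94 (SE 0.12, adjusted p = 1.89e-07). Against Apc_HET, at 25.4 ± 2.68 FPKM, it was 1.79 (SE 0.12, adjusted p = 4.04e-07).

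Tle3, its close relative, varied more between libraries. It was at 40.4, 35.3, 37.0 and 23.8 FPKM in Apc_KO replicates 1 to 4, 22.8, 21.8, 28.8 and 16.5 in Apc_HET, and 17.2, 15.2, 15.4 and 16.5 in Apc_WT. Apc_KO was clear of Apc_WT, but its replicate 4 fell within the Apc_HET range. Tle3 in Apc_KO was called higher than in Apc_WT (log2 fold change 1.02, SE 0.18, adjusted p = 0.000512) and than in Apc_HET (0.58, SE 0.18, adjusted p = 0.019). The second call ended when Apc_HET replicate 4 was left out (0.45, adjusted p = 0.0604) and in a fit of those 2 genotypes alone (0.58, adjusted p = 0.0535).

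RNA of the repressors Tle1 and Tle3 and the summed RNA of the factors were higher together in Apc_KO. Tle1 and Tle3 summed to 125 ± 20.5 FPKM in Apc_KO, 47.9 ± 5.88 in Apc_HET and 38.9 ± 2.23 in Apc_WT. Relative to the summed TCF/LEF factors this was 1.43 ± 0.115 in Apc_KO, 1.44 ± 0.206 in Apc_HET and 1.15 ± 0.101 in Apc_WT, given as a description. The ratio leaves out Tle2 and also Tle4, which was at 7.70 ± 1.98 FPKM in Apc_KO, 20.7 ± 1.53 in Apc_HET and 19.9 ± 1.57 in Apc_WT. Counting Tle4 would raise the ratio less in Apc_KO than in Apc_HET or Apc_WT, so the order of genotypes holds for this pair only. The Tle1 share of the pair was 67.5% to 77.9% in Apc_KO, 45.03% to 58.0% in Apc_HET and 57.3% to 59.99% in Apc_WT.

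**Figure D4:**
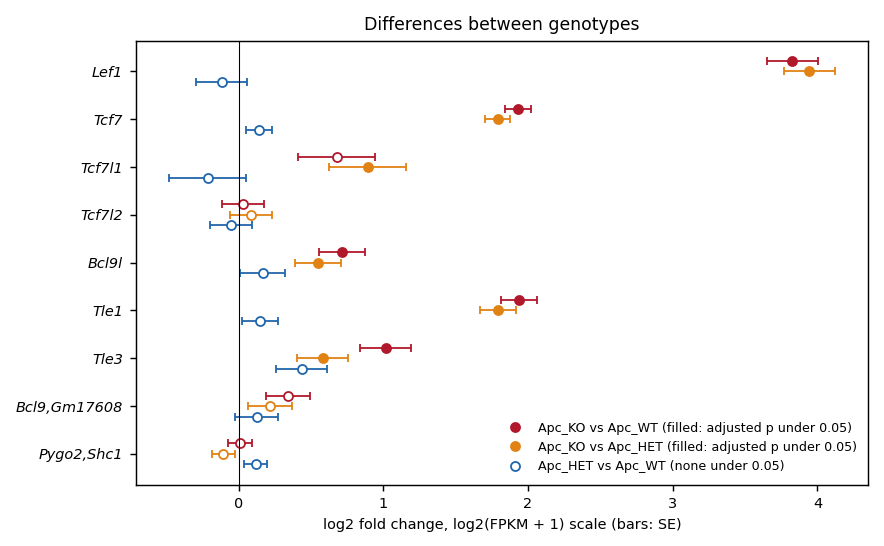
Log2 fold change on the log2(FPKM + 1) scale (horizontal axis, error bars SE) of each member and joined row (vertical axis) for Apc_KO against Apc_WT, Apc_KO against Apc_HET and Apc_HET against Apc_WT; filled points have an adjusted p under 0.05. Lef1 lies at 3.83 and 3.95 in the comparisons of Apc_KO, Tcf7l2 lies near 0 in all of them, and every Apc_HET against Apc_WT point is open.

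Against Apc_HET, 6 of the 7 members were called higher in Apc_KO and 0 lower, where 41.8% of all genes were called, 22.8% higher and 18.9% lower. The median log2 fold change of the members was 0.89. This comparison shares the Apc_KO libraries with the one against Apc_WT, so the 2 sets of calls are not independent of each other. With Apc_KO replicates 2 and 3 left out together, 3 members were called, Lef1, Tcf7 and Tle1. Of all 12962 genes, 3102 were called higher and 2776 lower under that alternative, so the members were not called more often than genes at large. That alternative was chosen after seeing the data, because Top2a, a gene of dividing cells, was at 49.9 and 53.8 FPKM in Apc_KO replicates 1 and 4 and at 141 and 147 in replicates 2 and 3. Other genes of dividing cells differed in this pairing. In Apc_KO replicates 1 to 4, Mcm2 was at 20.9, 49.5, 54.7 and 22.7 FPKM, but Cdk1 at 8.97, 28.4, 25.2 and 22.2. Of 14 S phase and mitosis markers tested against Apc_HET, 0 were called higher, 2 lower and 12 not.

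With 1 intact Apc copy, 0 of the 7 members were called against Apc_WT by limma, where 0% of all genes were called. At an unadjusted p under 0.05 there was 1 member, Tle3 (limma log2 fold change 0.44, SE 0.18, adjusted p = 0.987), where 561 of 12962 genes (4.33%) passed. Tcf7 was the only member whose Apc_HET and Apc_WT libraries did not overlap, as was so for 6.08% of all genes, and its log2 fold change was 0.14 (SE 0.09, adjusted p = 0.987). For Lef1 the value was -0.12 (SE 0.18), for Tcf7l1 -0.22 (SE 0.27) and for Tcf7l2 -0.06 (SE 0.14), each with an adjusted p of 1. All 3 signs turned when only the row of highest mean was used. Shares of the TCF/LEF sum differed from Apc_WT by at most 3.47 points (Tcf7, exact permutation p = 0.0857, adjusted p = 0.129).

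The order of these 7 members by level also differed. In Apc_KO it ran Tle1, Tcf7, Tle3, Tcf7l2, Lef1, Bcl9l and Tcf7l1 from high to low, in Apc_HET Tle1, Tle3, Tcf7l2, Bcl9l, Tcf7, Tcf7l1 and Lef1, and in Apc_WT Tle1, Tcf7l2, Tle3, Bcl9l, Tcf7, Tcf7l1 and Lef1. In Apc_KO all neighbours between Tcf7 and Bcl9l overlapped in their libraries, so only the top and bottom places are clear. In Apc_HET the libraries of neighbours overlapped for Tle1 with Tle3, Tle3 with Tcf7l2 and Bcl9l with Tcf7. In Apc_WT they did so for Tle1 with Tcf7l2, Bcl9l with Tcf7 and Tcf7l1 with Lef1. With the rows of a symbol summed, Lef1 was the lowest of the 7 on average in both genotypes with an intact Apc copy. By the row of highest mean alone, Tcf7l1 was below Lef1, at 0.210 beside 0.461 FPKM in Apc_HET and 0.155 beside 0.342 in Apc_WT. That Tcf7l1 row is chosen through its Apc_KO values.

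Because Lef1 and Tcf7 are also expressed outside the epithelium, markers of other cell types were read in the same libraries. In bulk RNA, fewer cells of a type and less RNA per cell cannot be told apart. Of 20 T and NK cell markers 11 were among the symbols used, and their summed level was 22.1 to 125 FPKM in Apc_KO, 43.9 to 167 in Apc_HET and 44.2 to 97.5 in Apc_WT. Among the 10 tested, Zap70, a T-cell receptor kinase, was higher in Apc_KO and passed the threshold against Apc_WT (log2 fold change 1.75, adjusted p = 7.14e-06). Bcl11b, a T-lineage factor, was called lower (-0.68, adjusted p = 0.0199), and 8 were not called. The Bcl11b call ended without Apc_WT replicate 1 (-0.58, adjusted p = 0.062) and without Apc_KO replicates 1 and 4 (-0.32, adjusted p = 0.0951). It also ended in a fit of the 2 genotypes alone (-0.68, adjusted p = 0.0567). Cd3d, a T-cell receptor subunit gene, made up much of the sum in some libraries and varied widely, at 0.575, 57.2, 0.214 and 92.1 FPKM in Apc_KO replicates 1 to 4, 0.428, 125, 0.502 and 63.9 in Apc_HET, and 15.2, 0, 67.6 and 27.1 in Apc_WT. The kinase gene Lck averaged 11.6 ± 3.57 FPKM in Apc_KO and 6.46 ± 4.11 in Apc_WT and was not called. Cd3e, another receptor subunit gene, was at 0.541 ± 0.493 FPKM in Apc_KO and 1.013 ± 0.295 in Apc_WT. Ptprc, the pan-leukocyte gene, was at 0.398 ± 0.277 FPKM in Apc_KO and 0.521 ± 0.113 in Apc_WT. Of 6 B cell markers 3 were found, with sums of 1.57 to 2.33 FPKM in Apc_KO and 1.73 to 2.82 in Apc_WT, and of 8 myeloid markers 2 were found, with sums of 0.197 to 0.834 FPKM in Apc_KO and 3.27 to 4.21 in Apc_WT.

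Markers of differentiated epithelium, stem cells, stroma and endothelium differed between Apc_KO and Apc_WT, not all of them in 1 direction. In Apc_KO against Apc_WT, 8 of 8 enterocyte markers were called lower (median log2 fold change -3.47), as were all 7 goblet and enteroendocrine markers tested (-3.17). Of 4 Paneth cell markers tested, 1 was called higher and 1 lower. Of 10 stem cell markers, 4 were called higher, Tnfrsf19 (2.92), Axin2 (1.34), Lgr5 (0.70) and Cdca7 (0.54). The Lgr5 call ended with size factors (0.58, adjusted p = 0.0715), quantile normalization (0.64, adjusted p = 0.0645) and a fit of the 2 genotypes alone (0.7, adjusted p = 0.0545). It also ended without Apc_WT replicate 2, 3 or 4 (adjusted p = 0.0538, 0.0735 and 0.0655) and without Apc_KO replicates 2 and 3 (0.81, adjusted p = 0.0509). The 2 called lower were Olfm4, at 391 ± 344 FPKM in Apc_KO and 5461 ± 341 in Apc_WT (-4.42), and Slc12a2 (-1.36). The median over the 10 was -0.003, and of all genes 45.5% were called in either direction. The 5 of 10 stromal markers found summed to 131 to 160 FPKM in Apc_KO, 20.8 to 88.5 in Apc_HET and 8.91 to 26.6 in Apc_WT. Vim, Pdgfra and Acta2 were called higher in Apc_KO than in Apc_WT and Pdgfrb lower, while the collagen gene Col1a1 was at 0 in 2 Apc_KO, 3 Apc_HET and 2 Apc_WT libraries. The 3 of 8 endothelial markers found summed to 77.4 to 116 FPKM in Apc_KO, 29.7 to 49.0 in Apc_HET and 46.1 to 73.1 in Apc_WT. Cdh5 and Tek were called higher and Vwf was not. Cdh5 was listed at 0 in 2 Apc_HET and 3 Apc_WT libraries and stood at 22.7 ± 7.07 FPKM in Apc_KO. The part of these cell types and states in the levels of Lef1, Tcf7 and the TLE genes was not tested.

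Other partners of beta-catenin were read beside the members. Of 20 genes of beta-catenin and other co-activators, 17 were tested for Apc_KO against Apc_WT, and 7 were called higher, 2 lower and 8 not, with a median log2 fold change of 0.13 beside 0.12 over all genes. The 9 calls of 17 are close to the 45.5% called over all genes. With size factors, and with quantile normalization, the calls were 5 higher and 2 lower. They were 4 and 3 without Apc_KO replicates 2 and 3, and 8 and 2 without Apc_KO replicates 1 and 4. Ctnnb1, the gene of beta-catenin, averaged 379 ± 58.6 FPKM in Apc_KO and 257 ± 20.9 in Apc_WT (log2 fold change 0.55, SE 0.14, adjusted p = 0.00697), a call that ended with quantile normalization (0.58, adjusted p = 0.0604). Ldb1 and Ssbp3, whose proteins form an adaptor complex that meets TCF at enhancers, were called higher, at 1.41 (adjusted p = 0.000139) and 0.61 (adjusted p = 0.000374), as was the chromatin remodeller Smarca4, at 0.56 (adjusted p = 0.00466). The 2 called lower were Tnik, a kinase that acts on TCF4, at -0.78 (adjusted p = 0.00289), and Tbl1xr1, a cofactor exchange protein, at -0.77 (adjusted p = 0.00133).

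Of 22 other co-repressors and inhibitors, 19 were tested, and 5 were called higher, 4 lower and 10 not, with a median of 0.12. Again the 9 calls of 19 are close to the 45.5% of all genes. With size factors the calls were 4 higher and 5 lower, and with quantile normalization 4 and 6. Sox17, an endoderm and endothelial factor whose protein binds beta-catenin, was called higher, at 106 ± 19.7 FPKM in Apc_KO and 0.0121 ± 0.0106 in Apc_WT (log2 fold change 6.71, adjusted p = 1.00e-11). The deacetylase gene Hdac1, at 0.61 (adjusted p = 0.00157), and Tle2, at 0.50 (adjusted p = 0.0172), were called higher too. The Tle2 call ended with quantile normalization (0.17, adjusted p = 0.377), in a fit of the 2 genotypes alone (0.50, adjusted p = 0.052), and without Apc_WT replicate 1 (0.43, adjusted p = 0.0553) or replicate 3 (0.43, adjusted p = 0.0528). The 3 of largest negative change were Tle4, the nuclear kinase gene Hipk2, at -0.85 (adjusted p = 0.0146), and Cbfa2t3, a co-repressor of the ETO family, at -0.76 (adjusted p = 0.00333).

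Tle4 thus moved against Tle1 and Tle3 within the Groucho family. It was at 8.23, 8.95, 8.84 and 4.76 FPKM in Apc_KO replicates 1 to 4, 22.4, 20.02, 19.0 and 21.6 in Apc_HET, and 21.9, 20.2, 18.2 and 19.3 in Apc_WT. Every Apc_KO library lay below all the others (log2 fold change against Apc_WT -1.30, SE 0.16, adjusted p = 3.57e-05). Of the summed FPKM of Tle1, Tle2, Tle3 and Tle4, Tle1 made up 67.5% ± 4.73 in Apc_KO, 36.4% ± 2.69 in Apc_HET and 38.1% ± 0.492 in Apc_WT, and Tle4 made up 5.72% ± 1.36, 29.9% ± 3.64 and 33.2% ± 1.15 in the same genotypes. Tle6 and the short family member Aes were not called in Apc_KO against Apc_WT, and Aes was the most abundant of the family at 228 ± 56.0, 226 ± 24.4 and 238 ± 25.9 FPKM in Apc_KO, Apc_HET and Apc_WT.

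**Figure D5:**
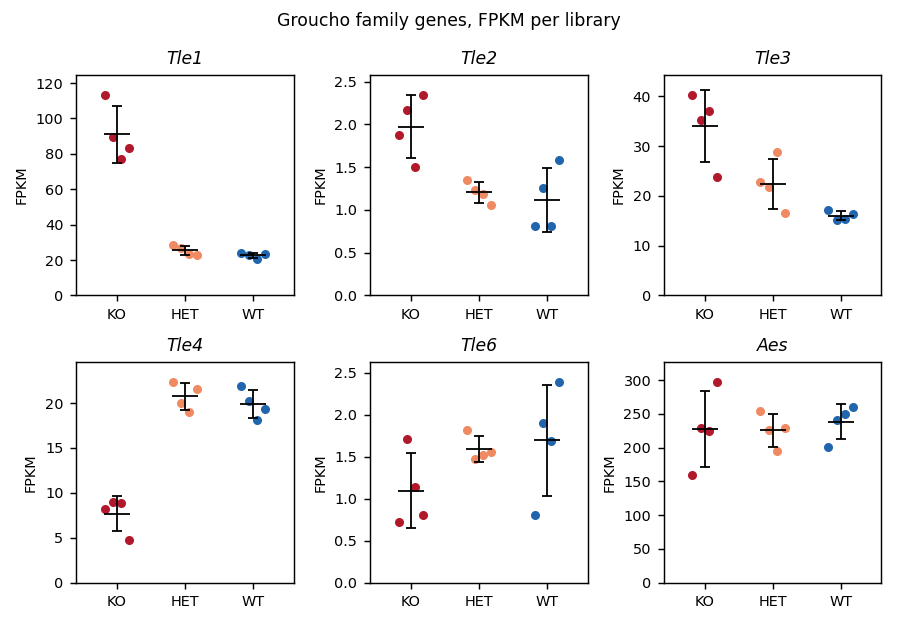
FPKM of 6 Groucho family genes, 1 point per library (replicates 1 to 4 from left to right), with means (horizontal bars) and SD (error bars, n = 4); Apc_KO is at the left, Apc_HET in the middle and Apc_WT at the right, and axes start at 0 with separate scales. Tle4 in Apc_KO is at 4.76 to 8.95 FPKM, below all other libraries, where Tle1 in Apc_KO is above them.

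Of 18 Wnt target genes, 17 were tested, and 12 were called higher in Apc_KO than in Apc_WT, 0 lower and 5 not, where 27.9% of all genes were called higher. Their median log2 fold change was 1.497. The largest were the secreted Wnt deacylase gene Notum, at 7.93 (adjusted p = 5.80e-12), Nkd1, a Dishevelled-binding inhibitor, at 5.76 (adjusted p = 4.88e-10), and Dkk3, at 4.79 (adjusted p = 6.55e-09). Lists were chosen with earlier results of these data known, so these counts are no independent evidence of a direction. In Apc_HET against Apc_WT, 0 genes of any of the 3 lists were called by limma.

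The genes whose pattern over the 12 libraries was most like that of Lef1, by Pearson's r of log2(FPKM + 1), were Tdrp (0.995), Scd1 (0.994), Robo1 (0.994), Asb4 (0.993) and Prr18 (0.993). All were under 1 FPKM on average in Apc_HET and Apc_WT, and between 5.26 FPKM (Tdrp) and 56.8 FPKM (Asb4) in Apc_KO. For Tcf7 they were Eml1 (0.997), Pald1 (0.997), Tspan9 (0.996), Sema3f (0.996) and Tmeff1 (0.996), and Lef1 and Tcf7 correlated with each other at 0.984. These coefficients describe libraries that fall into separate genotypes and mostly restate the gap between Apc_KO and the rest. Ranked by Spearman's rho instead, 1 of the 5 genes for Lef1 and 0 of the 5 for Tcf7 stayed among the first 5.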

How the data were processed

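RNA was sequenced in 12 libraries, 4 each of Apc_KO, Apc_HET and Apc_WT. The authors deposited FPKM per assembled locus, per the file headers. The submitters' processing notes name mm10 (GRCm38) and the tools Bowtie, TopHat, Cufflinks and Cuffdiff. Versions, annotation and filters are not given in the sources used here. Total reads are unknown, so no counting intervals are given.

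Of 14499 symbols, 295 whose loci differed between tables and 122 with failed or low-data estimates were left out, and the loci of a symbol were summed (2693 symbols). Genes with at least 1 FPKM in at least 4 libraries, 12962 of them, were put on the log2(FPKM + 1) scale and fitted by limma (version 3.58.1, under R 4.3.3), with all 12 libraries in 1 model and a trended prior. Tests were two-sided with Benjamini-Hochberg adjustment within each comparison. Shares were compared by exact permutation over the 70 regroupings. The limma procedure was tested on simulated data with known changes. The 9 members were named in every comparison, with the 3 called genes of largest change in each direction from each list, Ctnnb1, and the 5 genes most like Lef1 and like Tcf7. Tle6 and Aes, Apc, and the cell type markers singled out were named after their values were seen. Members and lists were chosen with earlier results of these data known. Alternatives changed the pseudocount, filter, scaling, locus summing, samples fitted and replicate block, and left out each library in turn.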

Additional observations from a re-analysis of the deposited data

Results flagged for a closer look

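Tcf7l1 in Apc_KO replicate 2, at 4.95 FPKM, stood far from the other Apc_KO libraries, of which the nearest was at 2.75 FPKM, and the gap took up 0.884 of the range of the 4 libraries, past the limit that Dixon's test sets for 4 values. It was 1 of 39 groups of 4 libraries examined for such a gap, and chance gives about 1 in 20. On the Tcf7l1 row of highest mean alone the same library was at 2.13 FPKM, within the other Apc_KO libraries.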

How the results depend on the processing

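For Lef1, Tcf7, Tle1, Tle3 and Bcl9l, the call of Apc_KO against Apc_WT kept its direction and its side of the threshold under every alternative run. Members called in Apc_KO against Apc_WT numbered 5 to 6 with 1 library left out, and in Apc_KO against Apc_HET 5 to 6, or 3 without Apc_KO replicates 2 and 3. Over all 12962 genes, 5244 to 6269 were called against Apc_WT and 4562 to 5622 against Apc_HET with 1 library left out. Against Apc_HET, 3102 genes were called higher and 2776 lower without Apc_KO replicates 2 and 3. Without Apc_KO replicates 1 and 4 the counts of members were 6 and 6, Tcf7l1 being added against Apc_WT at 0.89 (adjusted p = 0.0485). Of all genes, 4037 were then called higher and 2432 lower against Apc_WT, and 3272 and 2500 against Apc_HET. Genes called in Apc_HET against Apc_WT numbered 1 with a pseudocount of 0.1 FPKM, in a fit of those 2 genotypes only, with the highest locus and a pseudocount of 0.1, and without Apc_KO replicates 2 and 3, and 0 to 4 with 1 library left out (4 without Apc_HET replicate 4, 3 without Apc_WT replicate 3, 1 without Apc_KO replicate 2). Leaving out Apc_KO replicates 2 and 3, leaving out Apc_KO replicates 1 and 4, and the highest locus with a pseudocount of 0.1 were alternatives chosen after seeing the data.

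Signs near 0 turned. For Apc_KO against Apc_WT, Tcf7l2 was -0.0906 with size factors, -0.0352 with quantile normalization, -0.0904 to 0.182 with 1 library left out and -0.0201 without Apc_KO replicates 2 and 3, and Pygo2,Shc1 was -0.113, -0.0569, -0.0399 to 0.0369 and -0.0512 under the same settings. Tcf7l2 in Apc_KO against Apc_HET ran from -0.0345 to 0.238 with 1 library left out. For Apc_HET against Apc_WT, the highest locus gave 0.117 for Lef1, 0.0714 for Tcf7l1 and 0.0573 for Tcf7l2, and with a pseudocount of 0.1 it gave 0.31, 0.39 and 0.06. Lef1 there ran from -0.219 to 0.0063 with 1 library left out. Size factors moved the median log2 fold change of all genes, 0.12 in Apc_KO against Apc_WT, to 0.0074. The cause of these turns was not tested.

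With the highest locus, differences in share passed the threshold (adjusted p = 0.0429) for Tcf7 at 16.3 points against Apc_WT and 15.0 against Apc_HET, for Lef1 at 19.9 and 19.6, and for Tcf7l2 at -38.5 and -36.8, and turned sign for Tcf7l1 at 2.38 and 2.24 (Apc_KO) and 0.138 (Apc_HET against Apc_WT), and for Lef1 at 0.316 (Apc_HET against Apc_WT). The Tcf7l1 row is highest only through Apc_KO, so its turn follows from the choice of row, and the adjusted p of 0.0429 for the other factors counts the 2 Tcf7l1 tests among its 8 of 12 at the smallest p. As a log2 ratio to the geometric mean of the other factors, Tcf7 in Apc_KO against Apc_HET was -0.34 and Tcf7l2 in Apc_HET against Apc_WT was 0.0807. Each sign is opposite to that of the difference in share with rows summed, 13.3 points for Tcf7 and -1.94 for Tcf7l2. With 1 library left out, the exact test of shares cannot go below 0.0571 for 3 against 4. The share of Tcf7l1 in Apc_KO minus Apc_HET ran from -0.78 to 0.68 points.

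Same-numbered libraries did not deviate together (correlations of -0.195 to 0.18, 12 pairs), and 2 of 12 libraries correlated best with their own number. With the replicate number as a block, 6 members were called in Apc_KO against Apc_WT (5681 genes), Tcf7l1 being added at 0.68 (adjusted p = 0.0293), 6 in Apc_KO against Apc_HET (5178 genes) and 0 in Apc_HET against Apc_WT; the blocked exact test of shares, over sign flips of 4 same-numbered differences, cannot go below 0.125. Above 5 FPKM in at least 4 libraries Tcf7l1 was not tested.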
